A study of Rattus norvegicus with 12 samples.

Results

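The cells described here were cultured rat nucleus pulposus cells given exosomes from nucleus pulposus progenitor cells (NPPC-Exo) and no erastin. They were sequenced in 3 of the 12 libraries of the study, those whose labels name NPPC-Exo alone. Of the 21071 genes of the table, the 17166 typed as protein-coding were ranked by their mean FPKM, fragments per kilobase of gene scaled by library size, which allows levels of genes of different length to be compared. Of these, 10714 genes (62.4%) reached 1 FPKM in each of the 3 libraries and are called expressed, and 1616 (9.41%) had 0 counts in all 3. Every gene of the table had at least 1 count summed over the 12 libraries, so both shares are among genes read somewhere in the study. A gene without a row may have had no reads, which was not tested.

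All groups were nucleus pulposus cells in DMEM/F12 with 10% FBS and 1% penicillin-streptomycin at 37 °C and 5% CO2, and all received exosomes. The NPPC-Exo group had 50 µg/mL of exosomes, and the other groups had exosomes of progenitors overexpressing miR-221-3p (miR-Exo, with no separate concentration in the labels), or either kind with erastin. Erastin, which blocks cystine import and starts ferroptosis, was given at 0.1 to 5 µM for 48 h, with no dose for a single library. The labels name the tissue and the cell type, and give no age or strain of the rats. Whether replicate libraries stand for separate cultures is not stated, so the spread given below (SD, n = 3) may be technical and p-values measure that spread alone. No library of cells without exosomes was analysed, so the levels are those of cells under NPPC-Exo and not a change caused by it.

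The nucleus pulposus fills the centre of the intervertebral disc with a hydrated gel. Its cells descend from the notochord, and in mature discs they resemble chondrocytes: they make aggrecan, whose sulfated chains hold water against load, and a mesh of type II collagen, under the transcription factor SOX9. The tissue has no vessels, and its cells live by glycolysis with stabilised HIF-1. Cells of this kind grown on plastic in serum are known to take on features of fibroblasts.

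The 3 libraries held 63895336, 60480706 and 63046912 counts, so that a gene with 0 counts could still have had up to 0.0496 CPM (a rate of reads relative to the library total, from 3 counts in the shallowest library, counting error only). Across 5286 genes with a mean of at least 10 FPKM the median coefficient of variation was 6.29%. Library 1 stood somewhat apart, since it was the lowest of the 3 for 53.3% of these genes. The median variation was 4.07% without library 1, 4.91% without library 3 and 6.71% without library 2. These medians rest on fewer libraries, so they compare with each other and not with 6.29%. Log2 FPKM correlated across genes at r = 0.994 and 0.993 for library 1 with libraries 2 and 3, and at 0.996 between libraries 2 and 3. Genes are not independent replicates, and the libraries differed by more than sampling noise, so none is a copy of another.

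Mitochondrial, contractile and matrix genes led the ranking. Of the 20 highest genes, 6 were mitochondrially encoded (Mt-co1, Mt-atp8, Mt-co3, Mt-atp6, Mt-cyb and Mt-co2), with Mt-co1, a subunit of cytochrome c oxidase, first at 10012 ± 89.8 FPKM. The highest nuclear gene was Acta2, smooth muscle alpha-actin, with 6945, 7366 and 7925 FPKM in the 3 libraries. Sparc, a collagen-binding glycoprotein, followed at 5000, 5210 and 5662 FPKM, and Tagln, an actin-bundling protein of smooth muscle, at 3818, 4265 and 4495 FPKM. In each of these last 3 genes the order of the libraries was the same, with library 1 lowest and library 3 highest. The rest of the first 20 included Col3a1, Col1a1, Fn1, Thbs1, Actb, Eef1a1, Col1a2, Ccn2, Actg1 and Spp1, all between 2308 FPKM (Spp1) and 3955 FPKM (Col3a1). Of these named genes, Eef1a1 has its main role in translation, where it carries tRNA to the ribosome.

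Sequences just before the starts of 2 of these cells' defining genes are shown, Acta2 as the highest nuclear gene and Acan as the highest disc marker. Each is the 250 bases before the annotated start, from RefSeq on the GRCr8 build, with capitals marking matches to TATANA (N is any base) on the printed strand. Acta2 is read from chr1:241172504-241172753 on the minus strand and Acan from chr1:142390701-142390950 on the plus strand.
Acta2: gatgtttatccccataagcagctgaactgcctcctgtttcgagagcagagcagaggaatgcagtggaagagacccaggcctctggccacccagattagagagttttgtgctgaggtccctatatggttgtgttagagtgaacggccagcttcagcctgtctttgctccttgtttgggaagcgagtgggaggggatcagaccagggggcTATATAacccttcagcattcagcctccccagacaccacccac
Acan: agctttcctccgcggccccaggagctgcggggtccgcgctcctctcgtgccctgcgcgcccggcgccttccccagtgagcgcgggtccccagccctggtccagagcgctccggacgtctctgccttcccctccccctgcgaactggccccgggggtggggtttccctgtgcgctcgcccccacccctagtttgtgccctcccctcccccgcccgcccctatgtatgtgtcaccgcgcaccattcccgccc
The Acta2 window had 54.0% G and C, 3 CpG pairs and a TATANA match beginning 42 bases before the start. The Acan window had 73.6% G and C and 24 CpG pairs, against medians of 51.2% and 5 over 33469 promoters, and no TATANA match on either strand. Counted on either strand, TATANA was found before 24 of the 69 genes of the highest 100 for which the reference table had an entry (34.8%), before 929 of 8133 expressed genes (11.4%) and in 24.2% of all entries. The CArG box, the motif bound by serum response factor, was counted only as an exact CCWWWWWWGG (W is A or T). Such a match was found before 2 of 31 contractile genes (Actg1 and Cnn2) and in 1.5% of all entries. The Acta2 window had no exact match. Boxes that differ from that pattern were not counted, so a gene without a match may still hold one. A match describes these letters only and shows no binding.

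Expression was concentrated in few genes. The highest 10 protein-coding genes held 13.5% ± 0.11 of the summed FPKM, the highest 100 held 37.5% ± 0.13, and 285 genes held 50%. By class, the 13 mitochondrially encoded genes held 9.29% ± 0.06, matrix glycoproteins 6.34% ± 0.04, collagens 4.72% ± 0.32 and proteoglycans 1.16% ± 0.04. The 37 listed genes of actin stress fibres and contraction held 8.04% ± 0.10, more than the collagens in each library. In all, 513 genes reached a mean of 100 FPKM and 38 reached 1000. Of the highest 100 genes, 23 were in a matrix list and 18 in the contractile list, 9 encoded ribosomal proteins, and 34 were in no list fixed for this work.

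**Figure D1:**
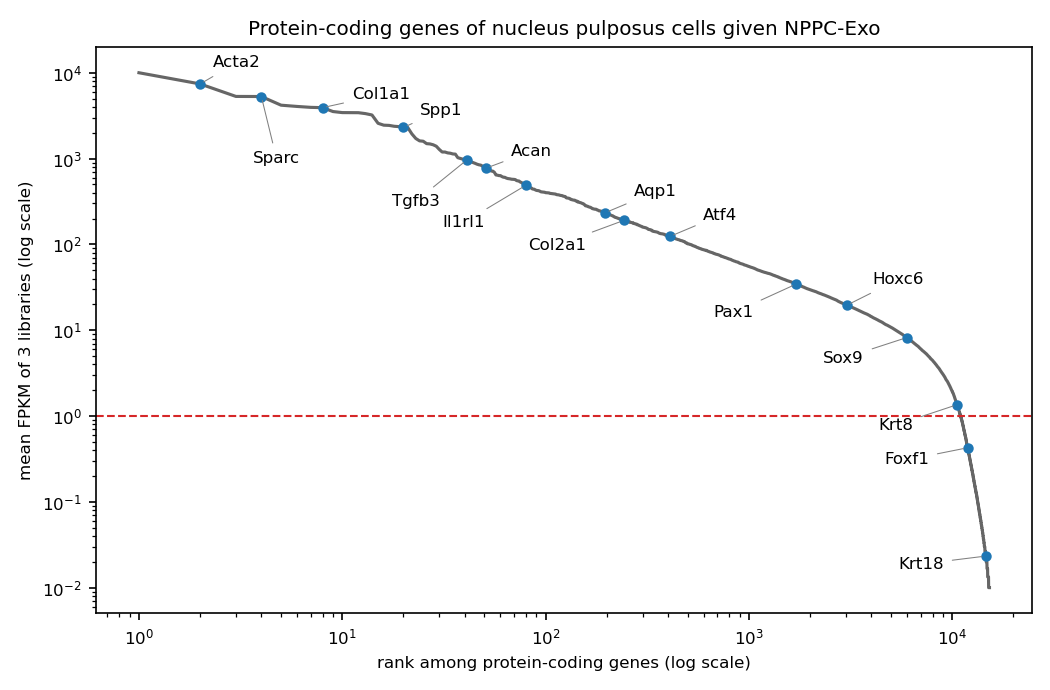
Mean FPKM of the 3 NPPC-Exo libraries (vertical, log scale) against the rank among protein-coding genes (horizontal, log scale), with named genes as points and the 1 FPKM minimum as a dashed line. Acta2, Sparc and Col1a1 stand among the first 10 genes, Acan at rank 51, Col2a1 at rank 242 and Sox9 at rank 5967, while Krt18 lies far under the line.

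Acan, Col2a1 and Sox9, which mark the nucleus pulposus, were expressed at unequal levels. Of 34 listed disc identity markers 5 had no row in the table used here. Of the other 29, 18 were expressed (62.1%, a share near the 62.4% of all protein-coding genes), 8 were lower, 2 had a mean under 0.1 FPKM and 1 had 0 counts. Acan, the aggrecan core protein, stood at rank 51 with 793, 788 and 742 FPKM, a coefficient of variation of 3.63%. Col2a1, type II collagen, had 256, 159 and 154 FPKM, so that library 1 lay 1.66-fold above library 3 and the other libraries were alike. Sox9, which drives both genes, had 10.3, 7.09 and 7.24 FPKM, with library 1 again the highest. The ratio of Acan to Col2a1 was 3.10 in library 1 and 4.94 and 4.81 in the other libraries, and the mean of 4.28 became 4.88 without library 1.

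Among the other factors of disc fate, Pax1, a paired-box gene of the sclerotome, was the highest at 35.8, 33.0 and 34.9 FPKM, with the 3 libraries close together. Its near relative Pax9 was at 0.127 FPKM on average. Sox5 and Sox6, the partners of SOX9 in cartilage, were low but expressed, at 1.27, 1.59 and 1.34 FPKM for Sox5 and 2.27, 1.75 and 1.51 FPKM for Sox6. Nkx3-2 (0.387 FPKM) and Foxf1 (0.427 FPKM), both used as markers of this lineage, stayed below 1 FPKM. Of the notochord genes, Foxa2 had a mean of 0.0667 FPKM and Foxa1 had 0 counts, and Tbxt, Noto, Shh and Krt19 had no row. Notochordal cells typically pair keratins 8 and 18. Krt8 was at 1.44, 1.15 and 1.48 FPKM, whereas Krt18 was listed at 0 in libraries 1 and 2 and at 0.07 in library 3. Of 20 keratin genes in the table only Krt7 (3.88 ± 0.38 FPKM) and Krt8 were expressed, and 7 had 0 counts.

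Surface and metabolic markers of the nucleus pulposus varied as widely. Cav1, the caveolae protein, was at 213 ± 9.25 FPKM and Lgals3, galectin-3, at 56.9 ± 4.48. Hif1a was at 38.2, 36.6 and 39.6 FPKM, and its relative Epas1 at 49.4, 39.4 and 38.6, so that their ratio lay on both sides of 1 (0.772, 0.929 and 1.02). The glucose importer Slc2a1 had 31.7, 26.4 and 23.9 FPKM. B4galnt1, a ganglioside synthase, had a mean of 6.39 FPKM, Basp1 5.70, Cdh2 (N-cadherin) 4.65 and Cd24 4.02. The progenitor marker Tek (TIE2) was at 0.197 FPKM, Ca12, a carbonic anhydrase, at 0.260 and Ca3, another, at 6.56. A2m, the protease trap, and Nog, the BMP antagonist noggin, were at 0.390 and 0.397 FPKM, Gpc3 at 0.920, Chrd (chordin) at 2.81 and Ptn (pleiotrophin) at 1.5. Foxf2 had no row.

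**Figure D2:**
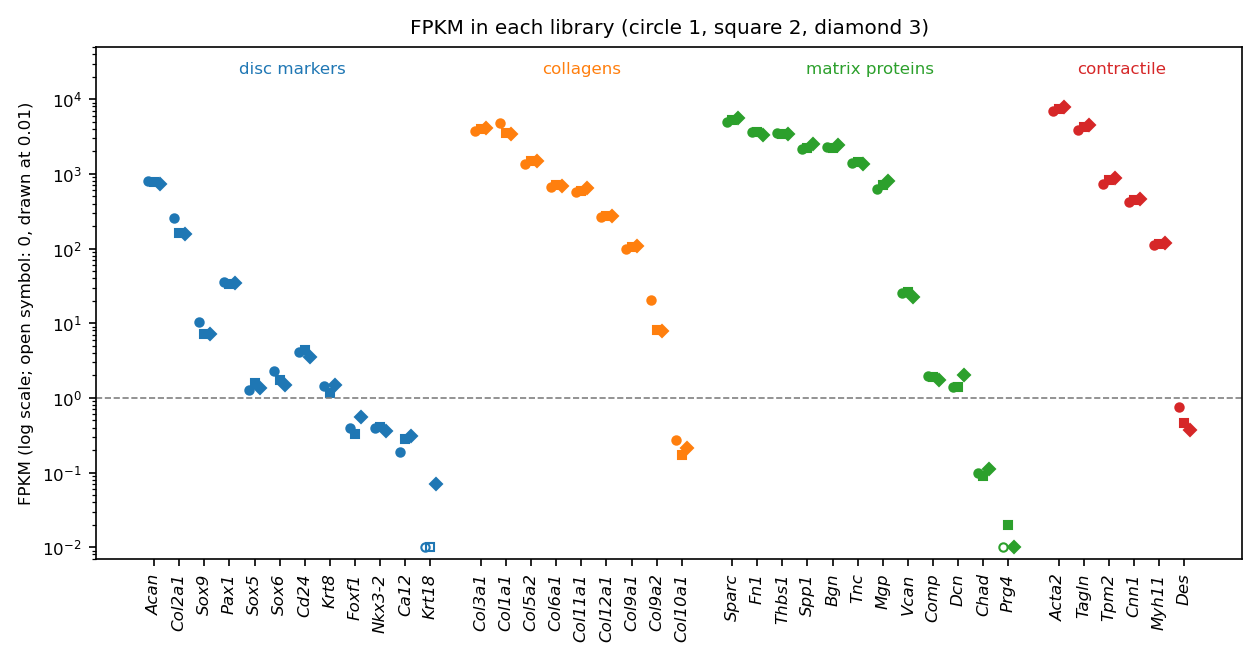
FPKM in each NPPC-Exo library (vertical, log scale) for disc markers, collagens, other matrix proteins and contractile genes, with a circle, square and diamond for libraries 1, 2 and 3 and open symbols at 0. The symbols of a gene mostly lie close together. Among the exceptions are Col1a1, Col2a1, Sox9, Sox6 and Col9a2, where library 1 is the highest, Dcn, where library 3 is the highest, and genes near 0.

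Fibrillar collagens of connective tissue far exceeded the cartilage collagen. Of 40 collagen genes 24 were expressed (60.0%, near the 62.4% of all protein-coding genes) and 15 reached 100 FPKM. Col1a1 had 4756, 3555 and 3458 FPKM and Col3a1 3774, 3964 and 4127, so that Col1a1 was the higher in library 1 only. Col1a2, the partner chain of Col1a1, was at 2452 ± 139 FPKM in the row used, and a second row of that gene was at 1939 ± 151. Whether reads are split between those rows was not tested, so its level is uncertain. Col1a1 was 18.6-, 22.3- and 22.4-fold as high as Col2a1 in the 3 libraries, and Col3a1 14.7-, 24.9- and 26.7-fold. Next came Col5a2 (1449 ± 71.8 FPKM), which joins type I fibrils, Col6a1 (692 ± 15.5), of the pericellular mesh, and Col11a1 (605 ± 33.4), which nucleates cartilage fibrils.

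The partners of type II collagen were present unevenly. Col9a1 had 99.3, 106 and 109 FPKM. Col9a2, which forms trimers with it, had 20.5, 8.07 and 7.94, with library 1 alone high, and Col9a3 had a mean of 1.42 and missed 1 FPKM in at least 1 library. Col11a1 was 1152- to 3991-fold as high as Col11a2, which had a mean of 0.283 FPKM. Col10a1, the collagen of hypertrophic chondrocytes, was at 0.217 FPKM, and Col22a1 and Col6a6 had 0 counts. All 22 genes for collagen folding, processing and crosslinking that had a row were expressed, with a median of 125 FPKM against 3.63 for all protein-coding genes. Serpinh1, the collagen chaperone HSP47, led them at 1482 ± 167 FPKM, followed by P4hb (617 ± 28.8), P4ha1 (424 ± 20.4), Plod2 (408 ± 26.0) and Lox (392 ± 16.3), which crosslinks collagen and elastin.

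Noncollagenous matrix was led by adhesive and matricellular glycoproteins. Of 64 listed matrix glycoproteins 60 had a row. Of these 44 were expressed (73.3%, against 62.4% of all protein-coding genes) and 21 reached 100 FPKM. Fn1, fibronectin, had 3669, 3668 and 3270 FPKM, and Thbs1, thrombospondin 1, had 3486, 3435 and 3388. Ccn2, the connective tissue growth factor, was at 2437 ± 146 FPKM, Spp1, osteopontin, at 2308 ± 206, Tnc, tenascin C, at 1394 ± 34.5, Postn, periostin, at 1280 ± 68.5 and Mgp, an inhibitor of calcification, at 715 ± 96.0. Several proteins of permanent cartilage were near 0. Matn1 and Snorc had 0 counts, and Ucma was at 0.0467 FPKM. The laminins Lama1, Lama2 and Lamc3 were under 0.1 FPKM, as was Tnr, and Vtn, Efemp1 and Ccn6 had 0 counts.

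Among the proteoglycans Bgn, biglycan, was the highest at 2267, 2225 and 2403 FPKM, above Acan in every library. Its close relative Dcn, decorin, was at 1.42, 1.39 and 2.00 FPKM, so that the ratio of Bgn to Dcn lay between 1202 and 1601. Of the other small leucine-rich proteoglycans Fmod was at 85.7 ± 5.24 FPKM and Prelp at 59.5 ± 3.43. Hspg2, perlecan, ran from 242 in library 1 to 126 in library 3, and Ogn between 30.4 and 63.4, so their levels are less certain. Of the cell-surface members, Sdc2 stood at 239 ± 11.0 FPKM, Gpc4 at 181 ± 13.3, Cspg4, the pericyte marker NG2, at 84.6 ± 4.88 and Sdc4 at 65.8 ± 5.82. Acan was 31.2-, 30.4- and 32.7-fold as high as Vcan, versican, and 92.7-fold on average as high as Hapln1, the link protein that ties aggrecan to hyaluronan. Kera and Ncan had 0 counts, Prg4, lubricin, was at 0.01 FPKM, Bcan at 0.00667, and Spock3 at 0.0867.

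Of 26 genes for glycosaminoglycan synthesis 22 were expressed (84.6%, against 62.4% of all protein-coding genes). Chsy1, which extends chondroitin chains, was the highest at 55.4 ± 2.18 FPKM. Papss1, which makes the sulfate donor, and Ugdh, which makes glucuronate, were at 36.8 ± 2.86 and 36.6 ± 0.26 FPKM, and did not differ beyond their spread. Chst13 had 0 counts and Chst7 was at 0.0267 FPKM. Of the hyaluronan synthases Has2 was expressed, at 2.34, 2.93 and 2.34 FPKM, and Has1 and Has3 were at 0.370 and 0.163 FPKM.

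Some matrix-degrading enzymes were expressed, and so were 3 of the 4 TIMP inhibitors. Of 17 matrix metalloproteinases 7 were expressed (41.2%, against 62.4% of all protein-coding genes). They were led by the membrane enzyme Mmp14 (163, 163 and 162 FPKM) and the gelatinase it activates, Mmp2 (142, 137 and 143). The collagenase Mmp13 (1.01 FPKM), the stromelysin Mmp3 (0.813) and Mmp9 (0.450) were not expressed, and Mmp1, Mmp1b and Mmp20 had 0 counts. Of 18 ADAMTS proteases 11 were expressed (61.1%, near the 62.4% of all protein-coding genes). Adamts1 was at 134 ± 3.58 FPKM, Adamts12 at 70.4 ± 1.1, the aggrecanase Adamts5 at 10.3 ± 0.57 and Adamts4 at 1.40 ± 0.26. Timp1 stood at 221 ± 19.7 FPKM, Timp2 at 133 ± 5.99 and Timp3 at 11.7 ± 0.65, whereas Timp4 was at 0.05.

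Contractile genes were high throughout. Of 37 listed genes of actin stress fibres and contraction 36 were expressed and 30 reached 100 FPKM, and Des, desmin, of muscle intermediate filaments, was the exception at 0.530 FPKM. After Acta2 and Tagln came the cytoplasmic actins Actb (3632, 3265 and 3384 FPKM) and Actg1 (2255, 2411 and 2477). Actin genes are near-identical in sequence and their levels are uncertain where reads could be split among them. Vim, vimentin, was at 1609 ± 59.2 FPKM, the actin-binding Cald1 at 1006 ± 36.9, Flna, a filamin, at 987 ± 48.0 and Tpm4, a tropomyosin, at 839 ± 4.24. Acta2 was 8.75-, 9.35- and 10.7-fold as high as Acan.

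Markers of smooth muscle and pericytes overlapped with that list. Of 13 listed genes 11 were expressed, among them Cnn1 (440 ± 16.7 FPKM), Smtn (135 ± 33.7), Myh11, the smooth muscle myosin heavy chain (110, 114 and 117 in the 3 libraries), Mcam (108 ± 1.13), Cspg4, Pdgfrb (65.5 ± 1.19) and Lmod1 (61.6 ± 1.56). The summed FPKM of this list was 11794 in library 1 and 13427 in library 3. Rgs5, a pericyte marker, was at 0.753 FPKM and Kcnj8 at 0.120. Whether cells of this type were in the culture was not tested, since a bulk library cannot tell a few cells with much of an RNA from many cells with little.

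Markers of other tissue cells ranged from 0 counts to clear expression. None of the 10 epithelial genes was expressed, and 7 of them, Epcam, Cdh1, Krt5, Krt14, Krt15, Cldn7 and Esrp1, had 0 counts, against 9.41% of protein-coding genes. None of the lymphocyte, erythroid or adipocyte genes with a row was expressed, and their summed FPKM in a library did not exceed 0.42, 0.22 and 2.21. Of 8 macrophage genes with a row Cd14, the lipopolysaccharide co-receptor, was the single one expressed, at 3.63 ± 0.51 FPKM, while Itgam, Adgre1 and Csf1r were under 0.1. Ptprc, Aif1 and Tyrobp had no row. Of 10 skeletal muscle genes with a row 3 were expressed, with a summed FPKM of the list of 57.8 to 58.5: Acta1, the skeletal muscle actin, at 49.6 ± 1.11 FPKM, the troponin Tnnt3 at 4.38 ± 0.46 and Casq1, a calcium store protein, at 2.48 ± 0.41. The myogenic factors Myod1 and Myog were at 0.0867 and 0.0967, and Tnni2 had 0 counts. Of 12 neuron and Schwann cell genes with a row 3 were expressed, with a summed FPKM of the list of 37.9 to 41.7: the myelin protein Pmp22 at 31.3 ± 1.68 FPKM, S100b at 3.10 ± 0.29 and Prx, periaxin, at 3.08 ± 0.03. Snap25, of nerve terminals, had 0 counts.

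Of 6 endothelial genes with a row 3 were expressed. Esam, an endothelial cell adhesion molecule, was the highest at 46.4, 45.2 and 53.5 FPKM. Egfl7, also secreted by endothelium, was at 6.62 ± 0.30 FPKM and Erg, an endothelial ETS factor, at 2.25 ± 0.23. Of the defining endothelial genes Vwf was at 0.0233 FPKM and Kdr at 0.00333, and Pecam1, Cdh5, Tie1, Cldn5, Emcn and Robo4 had no row. Of 15 genes of annulus, tendon and fibroblasts 12 were expressed (80.0%, against 62.4% of all protein-coding genes). They included Thy1 (554 ± 21.8 FPKM) and Lum (46.0 ± 4.19), while the tendon factor Scx was at 1.23 FPKM, Dpt at 0.497 and Tnmd at 0.347. Of 18 chondrocyte genes 8 were expressed (44.4%) and 2, Matn1 and Snorc, had 0 counts. Of 11 osteoblast and hypertrophy genes with a row Mef2c (19.96 ± 0.46 FPKM) and Runx2 (9.06 ± 0.38) were expressed, and Sp7, Alpl, Ibsp and Bglap stayed under 1 FPKM.

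**Figure D3:**
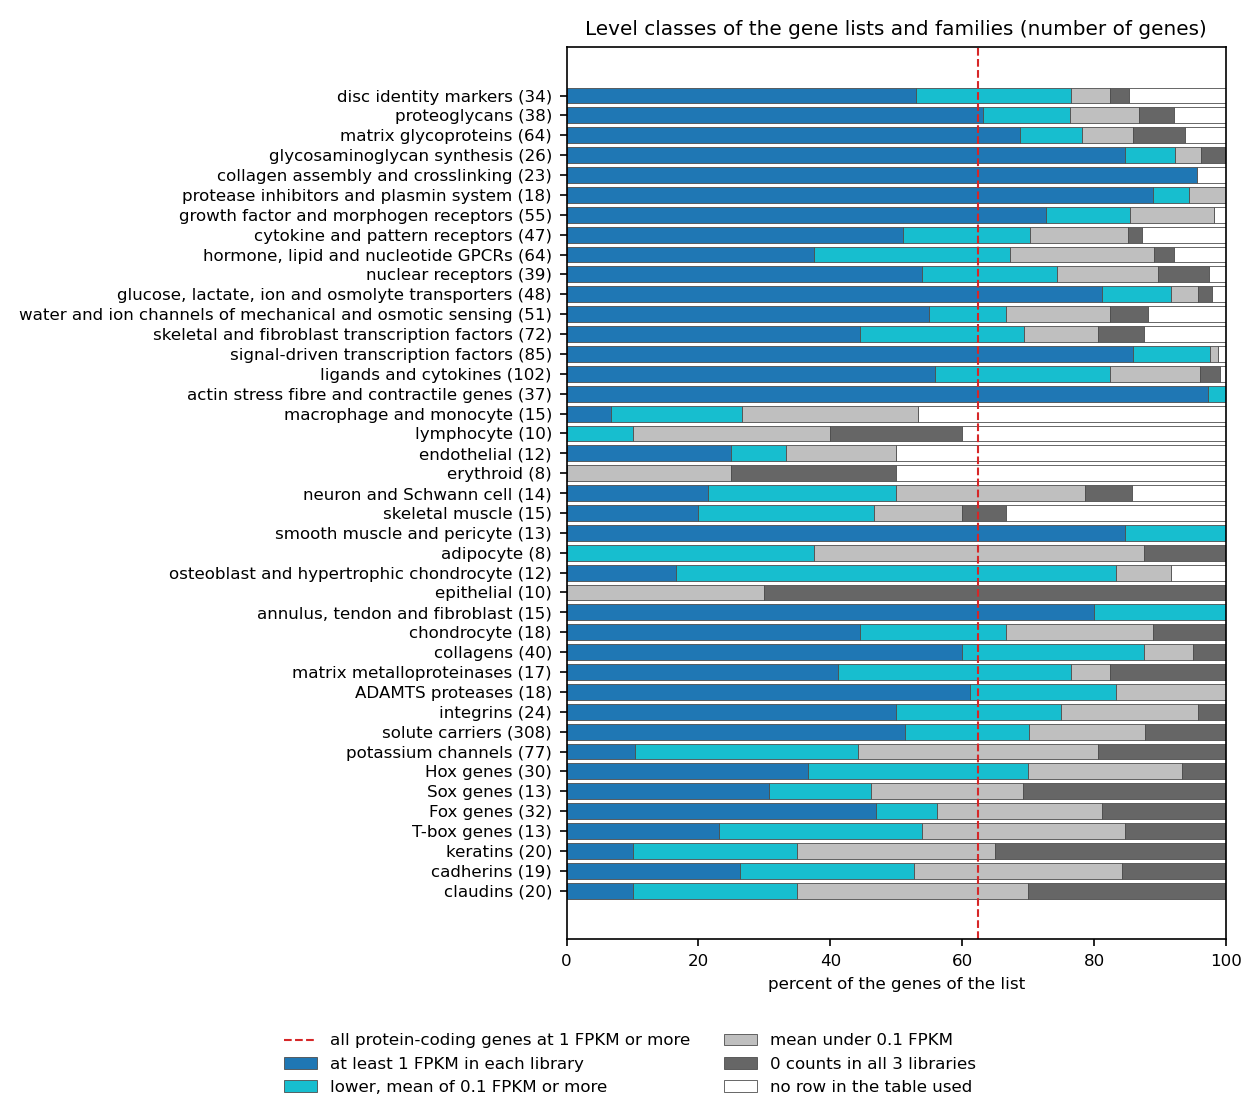
Percent of the genes of each fixed list or family (horizontal, number of genes in brackets) that were expressed, lower, near 0, at 0 counts or without a row, as stacked bars, with the 62.4% of all protein-coding genes as a dashed line. The bars for collagen assembly and contractile genes are nearly full and those for epithelial, lymphocyte and erythroid genes hold no expressed gene.

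Of 24 integrin genes 12 were expressed (50.0%, against 62.4% of all protein-coding genes). Itgb1, the beta chain shared by most of them, had 1086, 1141 and 1155 FPKM, and its collagen-binding partner Itga11 had 244, 248 and 242. Itga10, the collagen receptor chain of cartilage, was at 0.0900 FPKM. Itga5 (141 ± 4.83 FPKM) and Itgav (104 ± 2.12), which bind fibronectin and other RGD ligands, followed, and Itgb2, the leukocyte beta chain, had 0 counts. Itgb5 had 129 ± 4.98 FPKM but was not typed as protein-coding in the table, so it stands outside the ranking.

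Of 55 growth factor and morphogen receptors 54 had a row and 40 were expressed (74.1%, against 62.4% of all protein-coding genes). The highest were Igf2r, which also sorts lysosomal enzymes (168 ± 7.79 FPKM), Axl, the GAS6 receptor (131 ± 4.24), Lrp1, an endocytic receptor (116 ± 6.97), Pdgfrb, and Ddr2, a collagen-binding kinase (46.6 ± 2.82). Bmpr2 was at 43.9 ± 2.53 FPKM, Fgfr1 at 37.3 ± 0.54 and Igf1r at 30.2 ± 4.06. Kdr, Ngfr, Erbb3, Fgfr4 and Kit were under 0.1 FPKM, and Lepr had no row.

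The highest cytokine receptor was Il1rl1, the ST2 receptor for IL-33, with 458, 482 and 526 FPKM, rank 80 of all protein-coding genes. It was 23.9-, 24.2- and 27.6-fold as high as Il1r1, the IL-1 receptor, which had 19.1, 19.9 and 19.0 FPKM, while their shared partner Il1rap had 28.6, 28.9 and 24.5. FPKM over the whole gene does not separate the soluble from the membrane form of ST2. Tnfrsf11b, the RANKL decoy osteoprotegerin, was at 134 ± 6.90 FPKM, Cd44, the hyaluronan receptor, at 80.3 ± 0.62 and Tnfrsf12a at 78.7 ± 12.3. Il6st, the shared signal chain of the IL-6 family, was at 55.3 ± 1.03 FPKM, whereas Il6r was at 0.937. Of the pattern receptors Tlr2 was at 0.163 FPKM and Tlr1 and Tlr9 were under 0.1, as were Csf1r, Cxcr4, Il1r2, Msr1 and Il10ra. Cxcr2 had 0 counts.

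G protein-coupled receptors were mostly silent. Of 290 genes with that annotation that were not olfactory receptors, 48 were expressed (16.6%, against 62.4% of all protein-coding genes) and 78 had 0 counts (26.9%, against 9.41%). The highest were F2r, the thrombin receptor PAR1, with 75.5, 76.1 and 80.7 FPKM, and S1pr3, a sphingosine 1-phosphate receptor, with 71.7, 72.1 and 74.7. F2r lay above S1pr3 in each library. The adhesion receptor Adgrg6 was at 56.0 ± 2.13 FPKM, Fzd1, a Wnt receptor, at 52.7 ± 1.1, S1pr1 at 17.1 ± 0.61 and S1pr2 at 14.1 ± 0.53. Adra1a and Htr1d had 0 counts, and Casr, Cnr1, Cnr2, Chrm3, Adora1, Adora2a, Ptger2 and P2ry1 were under 0.1 FPKM. Of 39 nuclear receptors 38 had a row and 21 were expressed (55.3%), none at 100 FPKM. Rarg (18.5 ± 2.05 FPKM), Nr1d1 (16.3 ± 1.86), Vdr (12.9 ± 0.39) and the glucocorticoid receptor Nr3c1 (11.2 ± 0.44) were among the highest. The estrogen receptor Esr1 was at 0.05 FPKM, and Rxrg, Hnf4a and Esrrb had 0 counts.

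Of 308 solute carrier genes 158 were expressed (51.3%, against 62.4% of all protein-coding genes) and 38 had 0 counts. The family held 0.765% ± 0.02 of the summed FPKM. Slc25a4, the mitochondrial ADP/ATP carrier, was the highest at 183, 158 and 149 FPKM, followed by Slc66a3 (138 ± 9.55) and the phosphate carrier Slc25a3 (123 ± 9.46). Slc6a6, the importer of the osmolyte taurine, had 108, 117 and 106 FPKM, whereas Slc6a12, for betaine, was at 0.0133 and Slc5a3, for inositol, had no row. Slc16a3, the lactate exporter MCT4, was at 84.6 ± 5.66 FPKM and 5.84- to 6.72-fold as high as Slc16a1, MCT1. The amino acid carriers Slc38a2 and Slc7a5 were at 108 ± 3.37 and 96.3 ± 2.37 FPKM. Slc2a4, the insulin-driven glucose carrier, was at 0.130 FPKM and Abcc6 had 0 counts.

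Water and ion channels were led by Clic4 (278 ± 8.57 FPKM), an intracellular chloride channel protein, and the water channel Aqp1, with 213, 247 and 241 FPKM. Aqp1 was the single high aquaporin: Aqp2 and Aqp3 were under 0.1 FPKM, Aqp4 had 0 counts, and Aqp5, Aqp7, Aqp8 and Aqp9 had no row. Gja1, connexin 43, was at 106 ± 5.30 FPKM and the stretch-gated channel Piezo1 at 37.2, 29.3 and 25.8. Of 77 potassium channel genes 8 were expressed (10.4%), led by the mechanically gated Kcnk2 at 19.9 ± 0.84 FPKM and Kcnq5 at 5.96 ± 0.05, and 15 had 0 counts. Asic2 and Scn9a, of sensory neurons, also had 0 counts.

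Transcription factors stood well below matrix genes. Among 1292 genes given a factor family, 825 were expressed (63.9%), a share near that of all protein-coding genes, but families differed: 28 of 30 MYB-type genes, 318 of 445 C2H2 zinc finger genes, 15 of 32 forkhead genes, 47 of 144 homeobox genes and 4 of 15 T-box genes. Atf4, the amino acid stress factor, was the highest of the signal-driven list at 134, 115 and 123 FPKM, followed by Atf5 (85.7 ± 11.6), Id3 (84.5 ± 13.9), Xbp1 (78.5 ± 4.36), Egr1 (70.0 ± 9.74), Nfe2l2 (68.1 ± 2.83), Nfe2l1 (60.4 ± 2.13) and Creb3l2 (53.9 ± 2.57). Yap1, the Hippo effector, was at 47.5 ± 1.22 FPKM and Mycn at 0.0400.

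Of 72 skeletal and fibroblast factors 63 had a row. Of these 32 were expressed (50.8%, against 62.4% of all protein-coding genes), none at 100 FPKM. Nfix was at 53.3 ± 5.24 FPKM, Foxp1 at 44.1 ± 2.69, Zeb1 at 28.3 ± 1.06, Prrx1, of limb and body-wall mesenchyme, at 26.5 ± 2.88, Snai2 at 17.2 ± 0.93, Zeb2 at 15.8 ± 0.43 and Snai1 at 12.8 ± 1.03. Pax1 ranked the third in this list. Sox2, Sox17, Barx2, Tbx1 and Lmx1b had 0 counts, and Gli1, the read-out of hedgehog signalling, was at 0.0267 FPKM. Foxs1, a forkhead factor, had 24.8, 18.1 and 18.9 FPKM. Among 13 Sox genes Sox9, Sox13, Sox6 and Sox5 were expressed and 4 had 0 counts, and among 13 T-box genes Tbx3 (6.38 ± 0.64 FPKM), Tbx5 (2.76 ± 0.23) and Tbx18 (1.38 ± 0.25).

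Hox genes, whose order along each cluster follows position along the body axis, gave a positional profile. Among 30 Hox genes with a row, 11 were expressed (36.7%, against 62.4% of all protein-coding genes). Hoxc6 had 19.5, 18.3 and 21.0 FPKM and Hoxc8 17.4, 15.2 and 15.7, and the libraries of these 2 genes did not overlap. Hoxb7 was at 4.65 ± 0.31 FPKM, Hoxa7 at 2.90 ± 1.44 and Hoxb6 at 2.47 ± 1.64, with library 1 the highest for the last 2. In paralog groups 9 to 11 every gene with a row was below 1 FPKM, and Hoxa13, Hoxb13 and Hoxc13 were at 0.05 FPKM or less. Hoxd13, of the distal limb and tail end, was the exception at 5.87, 6.67 and 6.59 FPKM, while Hoxd11 and Hoxd1 had 0 counts and Hoxd10 was at 0.0467.

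**Figure D4:**
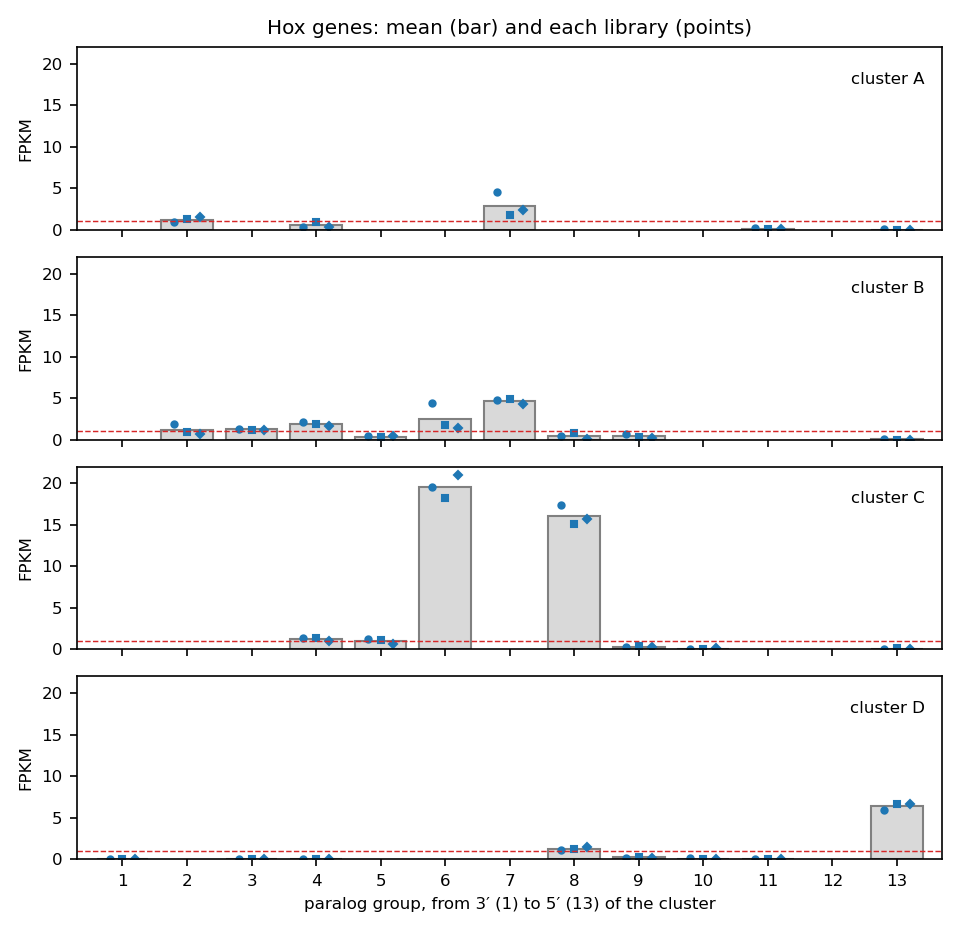
FPKM of Hox genes (vertical) by paralog group (horizontal) in clusters A to D, bars for the mean and points for the 3 NPPC-Exo libraries, with no bar where the table used has no row or a gene is not reported here. Hoxc6 and Hoxc8 stand highest, and Hoxd13 at 6.38 is the only gene of groups 9 to 13 above the dashed line at 1 FPKM.

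Secreted ligands were led by members of the TGF-beta system. Of 102 listed ligands and cytokines 101 had a row and 57 were expressed (56.4%, against 62.4% of all protein-coding genes). Tgfb3 had 945, 965 and 983 FPKM and was 27.1- to 39.3-fold as high as Tgfb1, and Tgfb2 was at 101 ± 4.62. Fstl1, a follistatin-like protein, was at 941 ± 28.9 FPKM, the BMP antagonist Grem1 at 202 ± 7.34, Igfbp7 at 117 ± 7.17, Inhba, the activin A chain, at 86.2 ± 9.22, Hbegf at 55.4 ± 2.62 and Fstl3 at 50.3 ± 4.41. Fstl1 was the higher of the 2 in library 2, and Tgfb3 in the others. Vegfa was at 42.1 ± 1.61 FPKM and Fgf10 at 37.5 ± 0.61. Among the cytokines of disc inflammation, Il1b and Il18 had 0 counts and Tnf was at 0.00667 FPKM, while others of the list, such as Ccl2 and Csf1, are not reported here. Gdf5, of joint development, also had 0 counts, and Dhh, Ihh, Wnt4, Bmp7, Dkk1 and Sfrp2 were under 0.1 FPKM.

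The least even genes between libraries were multi-copy and unnamed loci. Among genes with a mean of at least 10 FPKM the largest coefficients of variation belonged to AABR07015078.1 (131%), Mif (128%), AABR07015066.1 (112%), Rps19l2 (95.3%), Hist1h2bq (94.8%), AC141489.1 (93.6%), Rps12 (90.9%), Rpl36 (88.0%), Rplp1 (84.1%) and Rps2 (76.0%). Mif, a cytokine-like tautomerase, had 33.1, 3.82 and 3.08 FPKM, and its mean of 13.3 became 3.45 without library 1. That row of Rps19l2 was at 0.35 FPKM in library 1 and at 206 and 119 in libraries 2 and 3, and a second row of the same name was at 225, 50.2 and 174. Ribosomal protein genes have near-identical copies, so their levels are uncertain, and how reads were split among copies was not tested.

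Members were then set against the groups whose labels differ in erastin or in the kind of exosome, to see which parts of the profile held. For miR-Exo the labels give no separate concentration, so a difference in dose cannot be told apart from the kind of exosome. Counts were fitted with the quasi-likelihood test of edgeR, with p adjusted by the Benjamini-Hochberg method across all 15650 genes that passed the filter on low counts. Both comparisons use the same 3 NPPC-Exo libraries as reference. With erastin and NPPC-Exo, 6816 genes were called (43.6%), 3362 higher (21.5%) and 3454 lower (22.1%). Of the 1268 fixed members tested 263 were higher and 442 lower (55.6% called). When counts were scaled by library size alone the median log2 fold change of all genes moved from 0.02 to 0.30 and the share of higher calls from 49.3% to 77.8%, so directions below are relative to that choice. A lower level can come from fewer cells of a type or from less RNA per cell, which these libraries cannot tell apart.

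Matrix and contractile members fell with erastin. Of 39 collagens tested 32 were lower and 3 higher (median log2 fold change -1.23), of 53 matrix glycoproteins 41 and 7 (-0.71), of 32 proteoglycans 18 and 3 (-0.85), and of 37 contractile genes 26 and 5 (-0.72). With library size alone the lower and higher counts were 28 and 4, 32 and 9, 15 and 4, and 23 and 8. Of 13 smooth muscle and pericyte genes 12 were lower under either scaling, led by Myh11, which went to 16.9, 15.5 and 15.2 FPKM (log2 fold change -3.12 ± 0.06, adjusted p 5.07e-13). Acan went from 775 to 144, 123 and 135 FPKM (-2.81 ± 0.07, adjusted p 1.02e-11), and Col2a1 from 190 to 45.0, 50.9 and 57.1 (-2.18 ± 0.21, adjusted p 1.42e-06). For both genes the 2 groups did not overlap. Pax1 fell by 2.05 ± 0.09 and Sox9 by 1.38 ± 0.20 on the log2 scale. Esam, the highest of the endothelial genes, went from 48.4 to 1.51, 1.39 and 1.14 FPKM (-5.44 ± 0.14, adjusted p 1.02e-11). The levels of the contractile list moved together with those of the matrix lists, and the part of cell composition in this was not tested.

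Of 27 disc identity markers tested 8 were lower and 5 higher (48.1% called, near the 43.6% of all genes), with 8 and 8 under library size alone. Cd24 rose by 0.85 ± 0.10 and Slc2a1 by 0.44 ± 0.10, and Foxf1 went from 0.427 to 1.19 FPKM. Of 24 Hox genes 4 were called (16.7%, against 43.6% of all genes). Of these 2 were lower, among them Hoxd13 (-2.49 ± 0.12), and 2 were higher, Hoxc6 (0.80 ± 0.07) and Hoxc5 (1.26 ± 0.20). Library size alone gave 6 higher and 2 lower. The 30 Hox genes with a row had a median of 0.467 FPKM, against 3.63 for all protein-coding genes. Low counts make a call less likely, so the share does not show that Hox levels held. Of 77 ribosomal protein genes 6 were higher and 1 lower (9.09%), but 45 and 0 under library size alone. Of 34 nuclear receptors 15 were lower and 2 higher (50.0% called), with 11 and 4 under library size alone. Growth factor receptors (22 lower and 17 higher), signal-driven factors (29 and 19) and solute carriers (75 and 53) had more lower calls here and more higher calls under library size alone. The shares called here were 73.6%, 57.1% and 50.2%.

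With miR-Exo in place of NPPC-Exo 1669 genes were called (10.7%), 649 higher (4.15%) and 1020 lower (6.52%). Of the 1268 fixed members 79 were higher and 143 lower (17.5% called). Without library 2 of miR-Exo or library 2 of NPPC-Exo 1042 and 970 genes were called, and library size alone turned the share of higher calls from 38.9% to 68.7%. Of 27 identity markers 4 were called (14.8%, against 10.7% of all genes). Of these 1, Cav1 (-0.33 ± 0.05), was lower. The 3 higher were Cd24 (0.53 ± 0.10), Hif1a (0.24 ± 0.06) and Krt8 (0.68 ± 0.20, adjusted p 0.0494, a call lost or changed in 9 of 15 alternative settings). Acan was at 902, 788 and 831 FPKM (0.04 ± 0.07, adjusted p 0.774) and Col2a1 at 240, 187 and 176 (0.00 ± 0.20), each overlapping its NPPC-Exo values.

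Of 22 collagen assembly genes 10 were lower and none higher with miR-Exo, or 5 and 0 under library size alone, among them Loxl3 (-0.46 ± 0.05). Of 53 matrix glycoproteins 17 were lower and 6 higher, or 11 and 8. Aqp1, the leading water channel, went from 234 to 128, 153 and 136 FPKM (-0.83 ± 0.07, adjusted p 1.5e-05), and Il1r1 from 19.4 to 11.7, 11.6 and 12.6 (-0.78 ± 0.06, adjusted p 8.18e-06), with no overlap in either gene. Itga8 rose from 62.1 to 111, 114 and 119 FPKM (0.81 ± 0.05, adjusted p 1.19e-06). Of the 24 Hox genes 1, Hoxd13 (-0.55 ± 0.11), was called (4.17%, with the same limit of low counts). None of the 77 ribosomal protein genes was called by edgeR (4 had an unadjusted p under 0.05) and none by DESeq2, whereas 3 were higher and 1 lower without library 1 of NPPC-Exo.

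**Figure D5:**
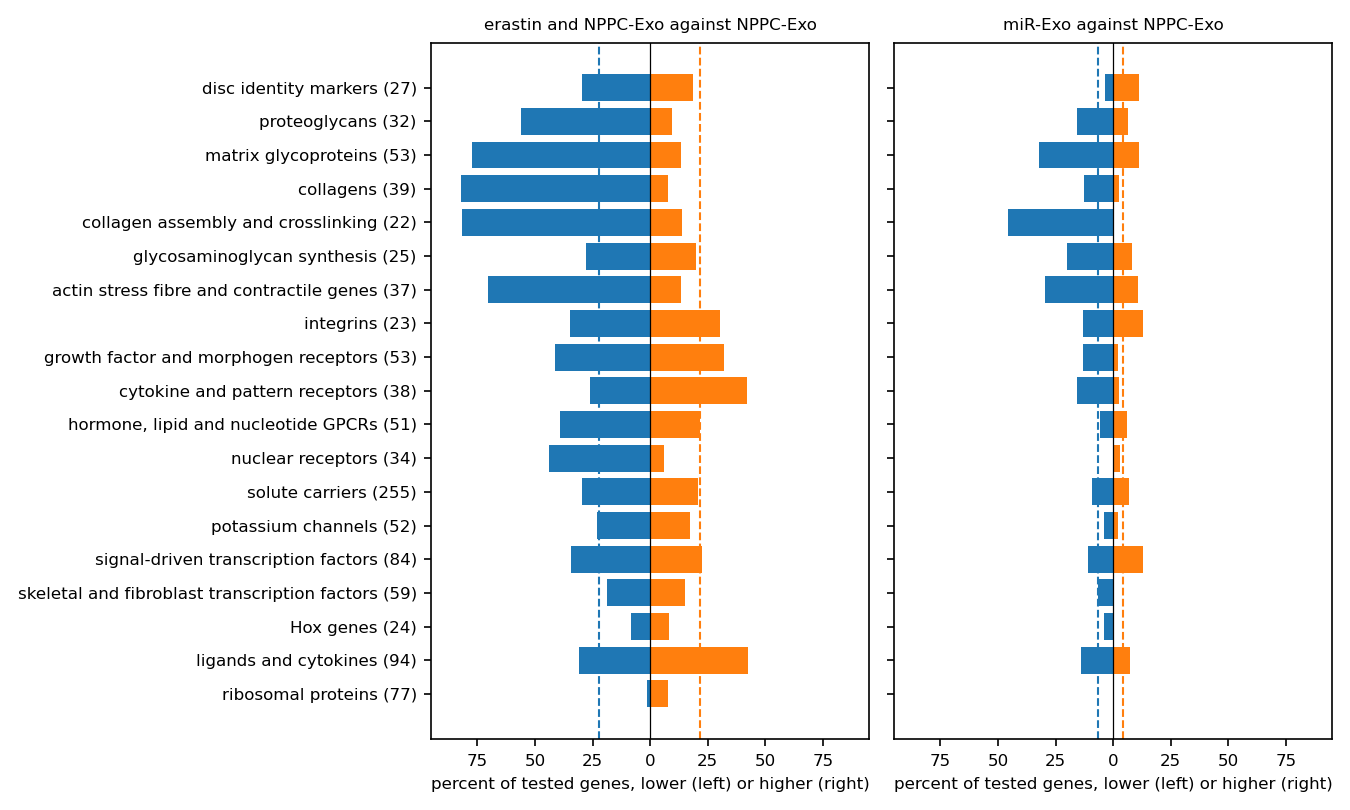
Percent of the tested genes of each list (number in brackets) that were higher (right, orange) or lower (left, blue) at an adjusted p under 0.05, with erastin and NPPC-Exo (left panel) and with miR-Exo (right panel), each against NPPC-Exo, and dashed lines for all genes tested. Collagens, matrix glycoproteins and contractile genes lie mostly on the lower side with erastin. Scaling by library size alone is not drawn. Under it those lists stayed mostly lower, while growth factor receptors, signal-driven factors and solute carriers had more higher than lower calls.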

How the data were processed

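Total RNA of rat nucleus pulposus cells was made into dUTP-marked libraries, per the labels' protocols. The authors deposited 1 table with raw counts per gene and FPKM, rounded to 2 decimals, for 12 libraries. The submitters' processing notes name StringTie and mRatBN7.2, while aligner, counter and filters: not given in the sources used here. Gene names of an older assembly occur in the table, so it is not used for coordinates. Even numbers made up 57.2% of counts between 1 and 20, and halved counts were run as an added setting.

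Levels were taken from FPKM as deposited, for genes typed as protein-coding, with at least 1 FPKM in each library as the minimum for expression. Lists held 1526 genes, of which 1459 had a row and 828 were expressed (56.8%), and 67 without a row are not analysed here. Whether those 67 had no reads in any library or stand under another name was not tested. The members and lists were chosen with earlier results of these data known. Named are the 20 highest genes, every disc marker, up to 8 highest and the near-0 members of each list (not all of the larger families), the 10 least even genes, and up to 3 members of a list with the smallest adjusted p. Genes set beside a relative or known for the disc (such as Dcn, Epas1, Tgfb1, Mmp13, Il6r, Itgb5 and Vegfa) were chosen after their values were seen. Col1a2, Ogn and Hspg2 carry placeholder names in the table and were matched by description or synonym. Some genes that the naming rule covers are not reported here.

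Counts were tested with edgeR 4.0.16 (filterByExpr, TMM, quasi-likelihood, 4 groups of 3 in 1 fit) in R 4.3.3, after a test on simulated data. Alternatives were DESeq2 1.42.0, limma 3.58.1 on log2(FPKM + 1) and log2(FPKM + 0.1), other scaling and filters, a replicate block and leaving out each library. Promoters came from RefSeq (GRCr8). Depth was 60480706 to 63895336 counts per NPPC-Exo library, a 3-count limit of 0.0470 to 0.0496 CPM.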

Additional observations from a re-analysis of the deposited data

How the results depend on the processing

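Of 4560 recomputed values, 4345 were classed as unchanged, by a rule that differed between kinds of value. A gene had to keep its side of the threshold, and its direction only where it was called. Shares, ratios and mean levels had to stay within the SD of the 3 libraries. Counts of genes and the median variation had to stay within a set fold range, which was wide: 1129 calls for miR-Exo against 1669 passed as unchanged. The number of expressed protein-coding genes ran from 9616 (minimum of 2 FPKM) to 11691 (FPKM rescaled to a common total), against 10714. Without mitochondrially encoded and ribosomal protein genes the highest 10 genes held 12.6% of the summed FPKM and the highest 100 held 33.5%, collagens, proteoglycans and matrix glycoproteins together 14.2% in place of 12.2%, and contractile genes 9.33%, since the total was smaller. The median coefficient of variation was 4.07% to 6.71% when a library was left out. Leaving out a library gave 5971 to 6585 calls for erastin and 970 to 1854 for miR-Exo. DESeq2 called 7047 and 2205 genes, and the fit on only the groups compared 6516 and 1129. Of the named genes called, 105 of 113 for erastin and 63 of 82 for miR-Exo were called in every setting in which they were tested. Apart from the disc markers, these genes were picked for the smallest adjusted p of their list in the same data. Their share therefore says little about how firmly other calls stand. Mt-co1 with erastin, called lower at -0.22, changed sign, to 0.0605 with library size alone and to 0.0549 and 0.0549 in limma on log2(FPKM + 1) and log2(FPKM + 0.1), where scaling is by library size. Correlations of same-numbered libraries ran from -0.02 to 0.12 and those of differently numbered libraries from -0.10 to 0.07. The highest was library 1 of miR-Exo with library 1 of NPPC-Exo, so whether replicate numbers pair the samples is not settled. A fit with the replicate block called 6720 and 1560 genes. Genes near 0 are limited by depth, and the origin of the replicates is not stated.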
